A study of Mus musculus with 8 samples.

Results

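The genes described are the activators of the circadian clock and its outputs: Arntl, Clock, Npas2 and Rora, the PAR bZIP factors Dbp, Tef and Hlf, their antagonist Nfil3, and the outputs Usp2 and Wee1. They were chosen by name, and each gene was read from the probe set with the highest mean over the arrays among those that the platform annotation pairs with a single symbol. That mean level chose the probe set and is not a finding. Of the 10 genes 9 had such a probe set, and each of these had 1. Npas2, a partner of Arntl that can stand in for Clock, was not paired with a probe set by the annotation used here and is not analysed here. The 9 genes are among 19938 tested.

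RNA came from mammary glands of 8 virgin, untreated female mice, 5 weeks old, of the strain background C57BL/6 X FVB. All 8 mice carried MMTV-Cre, a recombinase under the long terminal repeat promoter of mouse mammary tumour virus, which is active in mammary epithelium and also in other tissues. In 4 mice both copies of Sox9, a transcription factor of cartilage and epithelial progenitors, were floxed (flox/flox). The 4 controls carried a floxed and a wild-type copy (flox/+), so every mouse had Cre and at least 1 floxed allele. The piece taken, from the fourth gland close to its lymph nodes, was a mixture of ducts, fat, vessels and immune cells, with 1 Affymetrix Gene 1.0 ST array per gland. The sources used here do not give the hour at which glands were taken.

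The circadian clock is a feedback loop in nearly all cells. The basic helix-loop-helix proteins encoded by Arntl (also called Bmal1) and Clock pair up and switch on genes through the E-box, and among these genes are their own repressors, the Per and Cry genes. A further loop runs through the ROR element: the receptor encoded by Rora activates Arntl there, and the Rev-erb receptors encoded by Nr1d1 and Nr1d2 repress it. Dbp, Tef and Hlf activate a further layer of daily genes through the D-box, and Nfil3 represses through the same element. In most tissues Arntl and Dbp peak at nearly opposite times of day.

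The start-site windows of some of these genes show letters that the loops use. RefSeq windows of build GRCm38.p6, from 250 bases before to 50 bases after an annotated start, were held for 9 of the 10 genes, all but Wee1, 13 windows in all, since some genes have several starts. They were searched on both strands for the E-box CACGTG, an E-box-like CACGTT, the D-box as TTATGTAA or TTACGTAA, and the core of the ROR element as TAGGTCA or TGGGTCA. These are separate motifs, and no match overlapped another. The stretches shown are the matches found, with the motif in capitals, 5′ to 3′ on the strand of the gene.
Arntl, chr7:113207530-113207559, plus strand: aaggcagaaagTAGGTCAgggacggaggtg
Nfil3, chr13:52981033-52981062, minus strand: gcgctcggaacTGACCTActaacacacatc
Tef, downstream start, chr15:81811264-81811293, plus strand: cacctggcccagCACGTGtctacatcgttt
Tef, upstream start, chr15:81802423-81802672, plus strand: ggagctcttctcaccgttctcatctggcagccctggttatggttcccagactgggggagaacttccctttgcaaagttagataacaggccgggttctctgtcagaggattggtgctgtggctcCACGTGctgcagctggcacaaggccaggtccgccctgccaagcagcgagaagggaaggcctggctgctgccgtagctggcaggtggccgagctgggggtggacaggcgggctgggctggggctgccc

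In Nfil3 the ROR element core stands on the opposite strand, as TGACCTA. The motif began 31 bases into the transcript for 1 of the Arntl starts, and 12 bases before the start for Nfil3. For Tef the E-box began 127 bases before the upstream start and 138 bases before the downstream one. Of all 32851 windows of this length 7.15% held the E-box, 6.45% the ROR element core, 4.68% the E-box-like letters and 1.06% the D-box. Among the 13 windows 2 held the E-box, 2 the ROR element core, and 0 either of the other motifs. A match describes the sequence and was not tested as a site.

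None of the 9 genes passed the test across all genes, but most had differences that were large beside those of other genes. Arntl lay lower in the flox/flox glands, Clock was nearly level, and Rora, Dbp, Tef, Hlf, Nfil3, Usp2 and Wee1 had higher means. The log2 differences ran from -0.57 for Arntl to 0.76 for Usp2, with a median of 0.36 over the 9 genes against -0.01 over all genes tested. In limma 0 of 9 had an adjusted p under 0.05, where 0.0401% of all genes did, 0.0301% higher and 0.01% lower. At an unadjusted p under 0.05 there were 8 of 9, 7 higher and 1 lower, where 10.3% of all genes reached it, 4.81% higher and 5.46% lower. For 4 of the 9 the 4 flox/flox values all lay above the 4 flox/+ values, against 2.74% of all genes, and 0 were separate in the lower direction, against 3.16% (5.9% of all genes in either direction). These genes were proposed with earlier results of the same arrays known, so the counts describe them and are not independent evidence. In a whole gland, fewer cells of a type and less RNA per cell cannot be told apart.

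**Figure D1:**
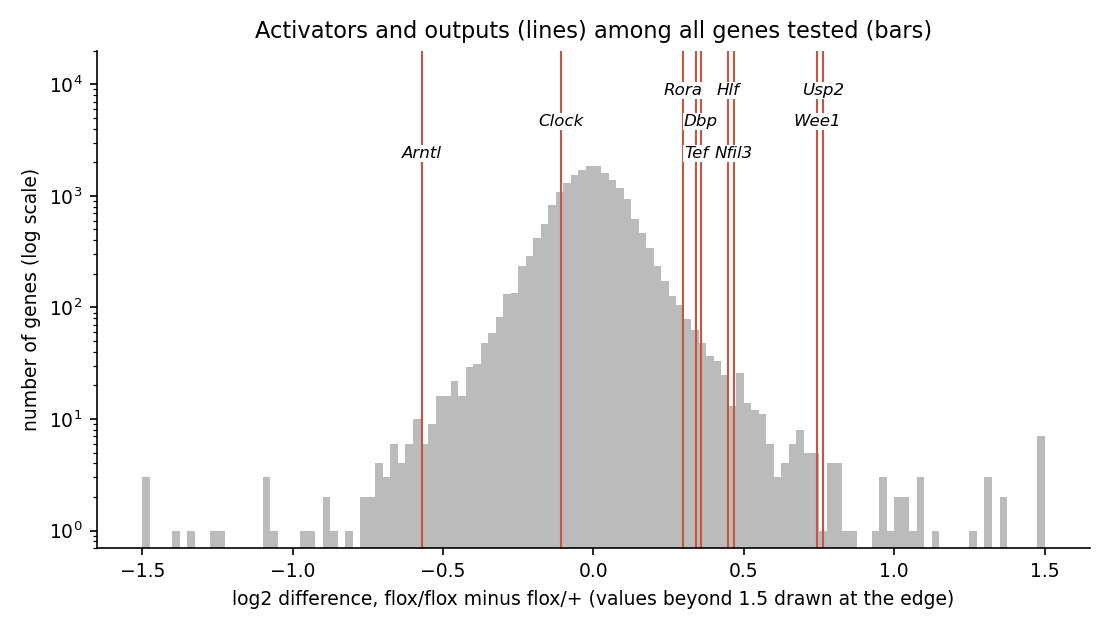
Histogram of the log2 difference, flox/flox minus flox/+, of all 19938 genes (bars, number of genes on a log scale), with a line for each of the 9 clock activators and outputs. Arntl lies on the lower side at -0.57 and Usp2 and Wee1 lie on the upper side at 0.76 and 0.74, while Clock, at -0.11, lies within the bulk of genes.

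Arntl, the core activator, was lower in 3 flox/flox glands and at the control level in the other. Its normalized intensity was 195, 204, 192 and 182 in the flox/+ glands. The flox/flox glands read 115, 109, 184 and 104. Replicate 3 of the flox/flox glands, at 184, lay inside the control range, so the genotypes overlapped through that gland alone. Means were 193 ± 9.0 in flox/+ and 128 ± 37.3 in flox/flox glands (SD, n = 4). The log2 difference was -0.57 ± 0.14 (SE, 95% interval -0.88 to -0.26), with limma's unadjusted p of 0.00199 and adjusted p of 0.221. Without flox/flox replicate 3 the difference was -0.74 with an adjusted p of 0.0151, past the threshold.

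Clock, the partner of Arntl, showed no difference beyond the spread of the glands. Intensities were 694, 641, 623 and 561 in flox/+ and 572, 591, 578 and 585 in flox/flox glands. All 4 flox/flox values lay between the lowest and the second-lowest control. The difference was -0.11 ± 0.07 (95% interval -0.27 to 0.05; limma adjusted p = 0.653). The spread itself differed, with an SD of 54.7 in flox/+ and 8.28 in flox/flox glands, which was not tested.

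Rora, the activator at ROR elements, lay higher in most flox/flox glands. Its intensity was 351, 325, 334 and 432 in flox/+ and 486, 471, 409 and 416 in flox/flox glands. Control replicate 4 read above flox/flox replicates 3 and 4, and without that control the genotypes did not overlap. The difference was 0.30 ± 0.10 (95% interval 0.08 to 0.51; limma unadjusted p = 0.0117, adjusted p = 0.32).

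**Figure D2:**
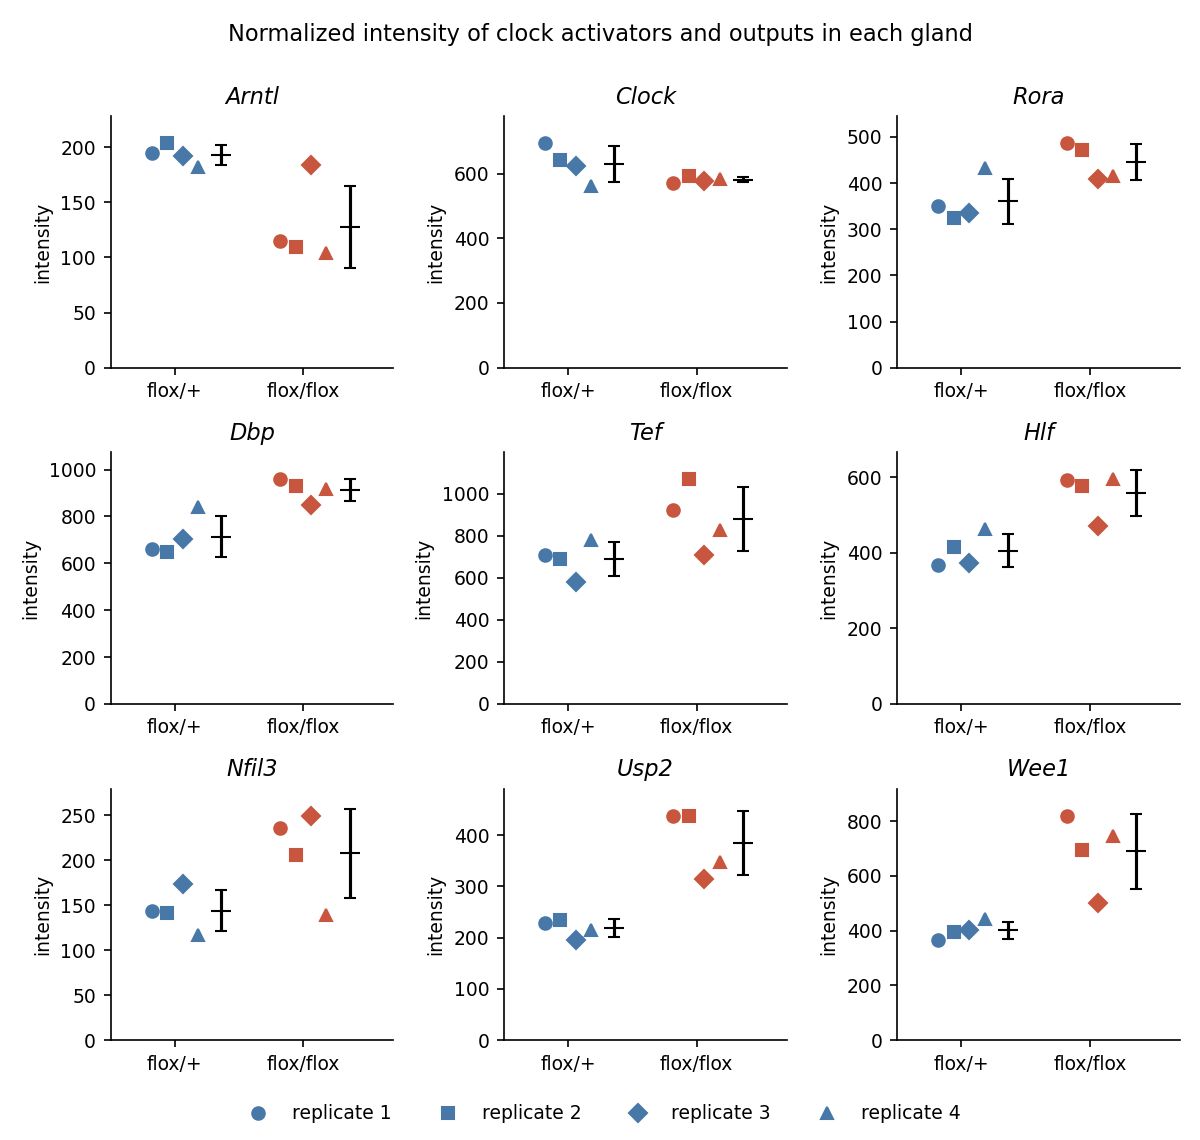
Normalized intensity (linear axis from 0) of the 9 measured clock activators and outputs in each gland, with flox/+ in blue, flox/flox in red, a marker shape per replicate number, and the mean with its SD in black at the right of each group. Dbp, Hlf, Usp2 and Wee1 show no overlap between the genotypes, and flox/flox replicate 3 (diamond) lies nearest the controls for these 4 genes and inside their range for Arntl.

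The PAR bZIP factors had positive differences of similar size. Dbp, an E-box output of the clock with a large daily swing in most tissues, read 659, 650, 703 and 840 in flox/+ glands. In flox/flox glands it read 958, 932, 848 and 919. The genotypes did not overlap, but the highest control (840) and the lowest flox/flox gland (848) nearly touched. Means were 713 ± 87.7 and 914 ± 47.1 (SD, n = 4), a log2 difference of 0.36 ± 0.09 (95% interval 0.16 to 0.55; limma unadjusted p = 0.00197, adjusted p = 0.22).

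Hlf, a PAR bZIP factor also known from its fusion in leukaemia, read 368, 416, 372 and 462 in flox/+ and 591, 577, 469 and 594 in flox/flox glands. Here too the genotypes were separate, by the small gap between 462 and 469, while the other 3 flox/flox glands stood well above every control. Its difference was 0.45 ± 0.10 (95% interval 0.23 to 0.66; limma unadjusted p = 0.000871, adjusted p = 0.177).

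Tef, whose 2 start windows each held an E-box, overlapped between the genotypes. It read 707, 689, 580 and 778 in flox/+ and 923, 1069, 707 and 830 in flox/flox glands. Only flox/flox replicate 3 lay within the control range. The log2 difference was 0.34 ± 0.13 (95% interval 0.06 to 0.62; limma unadjusted p = 0.0204, adjusted p = 0.385).

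Nfil3, the repressor that competes with these factors for the D-box, had a positive difference but a different order of glands. It read 144, 142, 173 and 117 in flox/+ and 236, 206, 250 and 139 in flox/flox glands. Flox/flox replicate 3, the lowest of its genotype for the 3 PAR bZIP activators, was the highest for Nfil3, and flox/flox replicate 4 was at the control level. The difference was 0.47 ± 0.16 (95% interval 0.11 to 0.82; limma unadjusted p = 0.0157, adjusted p = 0.35).

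The outputs Usp2 and Wee1 had the largest differences of the 9 genes. Usp2 encodes a ubiquitin-specific protease whose RNA cycles in most tissues. Its intensity was 229, 234, 195 and 215 in flox/+ glands and 438, 438, 315 and 348 in flox/flox glands. The lowest flox/flox gland stood well clear of the highest control. Means were 218 ± 17.5 and 385 ± 62.9 (SD, n = 4), 1.7-fold with the offset of the log scale still in. The log2 difference was 0.76 ± 0.11 (95% interval 0.52 to 1.01), with an unadjusted p of 2.93e-05 that ranked 11 among the 19938 genes. Its limma adjusted p was 0.0531, just short of the threshold, and it passed in 5 of 19 alternatives, among them median centring (0.0494) and the fit without flox/flox replicate 3 (0.0227).

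Wee1 encodes the kinase that restrains entry into mitosis by phosphorylating CDK1, and is an E-box output of the clock in liver. It read 365, 394, 401 and 444 in flox/+ and 821, 696, 501 and 746 in flox/flox glands. The genotypes did not overlap, and flox/flox replicate 3 lay nearest the controls. Means were 401 ± 32.6 and 691 ± 137 (SD, n = 4). The difference was 0.74 ± 0.13 (95% interval 0.45 to 1.04; limma unadjusted p = 0.000178, adjusted p = 0.106), and without flox/flox replicate 3 it was 0.89 with an adjusted p of 0.0151.

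Within each genotype 1 gland recurred at the end of the range for several of these genes. Among the flox/flox glands replicate 3 was the lowest for 6 of the 9 genes (Rora, Dbp, Tef, Hlf, Usp2 and Wee1) and the highest for Arntl and Nfil3. Among the controls replicate 4 was the highest for 5 (Rora, Dbp, Tef, Hlf and Wee1) and the lowest for Arntl, Clock and Nfil3. In both genotypes a gland at the end of the range for Dbp, Hlf and Wee1 was at the opposite end for Arntl. The count of genes without overlap was 6 without flox/flox replicate 3 (Dbp, Tef, Hlf, Usp2 and Wee1 higher, Arntl lower; 10.5% of all genes) and 7 without flox/+ replicate 4 (Rora, Dbp, Hlf, Usp2 and Wee1 higher, Arntl and Clock lower; 10.7% of all genes).

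**Figure D3:**
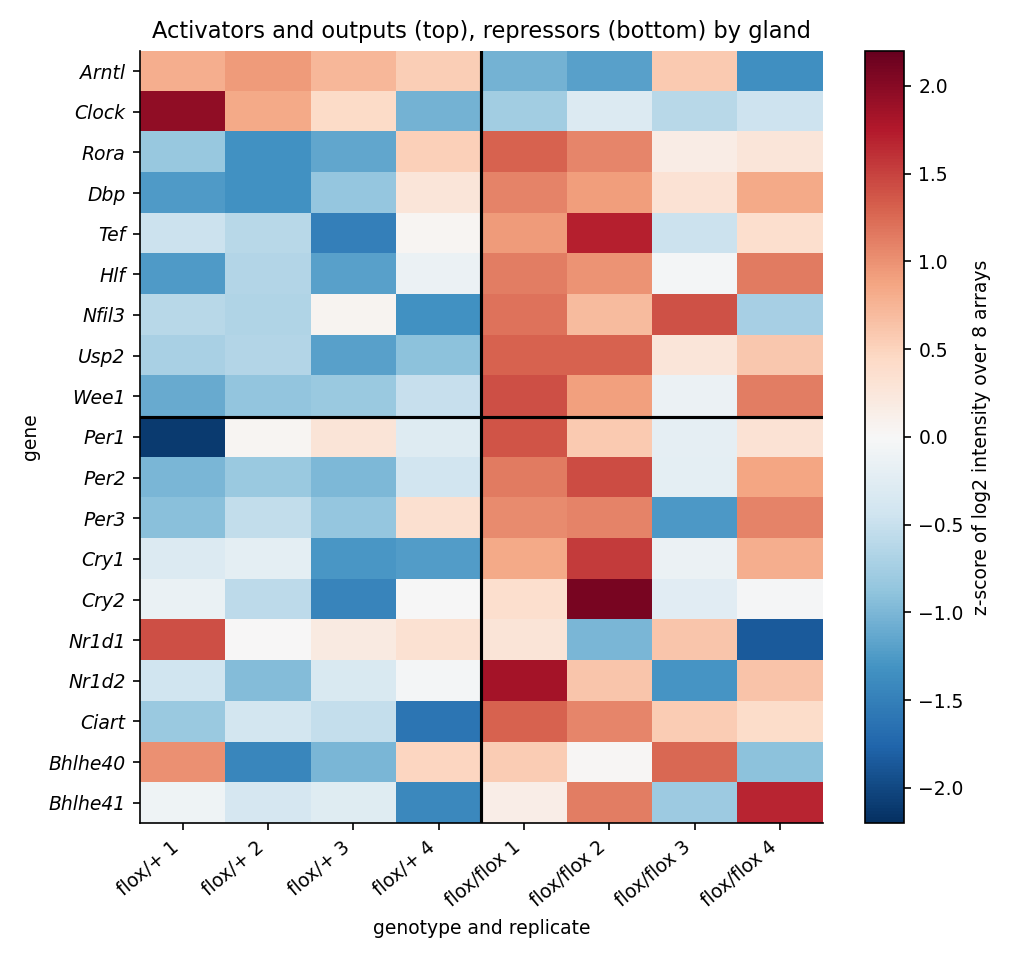
Heat map of log2 intensity as z-scores over the 8 arrays, with the 9 clock activators and outputs above the horizontal line, the 10 clock repressors below it, and flox/+ glands left of the vertical line. Red is above and blue below the mean of a gene. Flox/flox replicate 3 is paler than the other flox/flox glands for Dbp, Hlf, Usp2 and Wee1, and is on the side of the controls for Arntl.

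Correlations over the 8 glands were computed for all 36 pairs. They are not given for pairs with Dbp, Hlf, Usp2 or Wee1, where the genotypes form separate groups, nor for Arntl, whose values fell into 3 low and 5 high glands. Of the remaining 6 pairs, Rora and Tef varied together over the glands, with Pearson's r = 0.86 (exact permutation p = 0.00565, 0.0223 adjusted over the 36 pairs) and Spearman's rho = 0.905 (exact permutation p = 0.00456, adjusted 0.0372). Without the 2 glands farthest from the median of Rora r was 0.81, and with each genotype centred on its mean it was 0.722. Clock and Rora had a negative r of -0.756 (exact permutation p = 0.0274, adjusted 0.0449). It was -0.727 without the 2 glands farthest from the median of Clock, and -0.6 with each genotype centred on its mean. By rho the pair was not past the threshold (-0.714, exact permutation p = 0.0576, adjusted 0.104). The adjustment ran over all 36 pairs, those not given included, so the adjusted p of this pair rests in part on them. The permutations took the glands of both genotypes together. A genotype difference shared by 2 genes, as for Rora and Tef, therefore enters the p of the pair. No p was computed for the values centred within genotype. For Nfil3 with Clock, Rora and Tef, and for Clock with Tef, the exact permutation p lay between 0.254 and 0.516 for r and between 0.299 and 0.935 for rho, before adjustment.

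The genes whose profile over the 8 arrays was most like that of Arntl, by Pearson's r on the log2 scale, were Olfr494 (0.99), Mybpc1 (0.98), Slc4a10 (0.96), Lpar4 (0.96) and Incenp (0.96). Those most like Dbp were Lrrc26 (0.97), Sdc4 (0.96), Fbxw2 (0.96), Sgms1 (0.95) and Cgrrf1 (0.94). Outside the clock genes described, 73 genes had r over 0.9 with Arntl and 41 had r under -0.9, and for Dbp these counts were 49 and 47. They describe 8 glands of 2 genotypes and carry no test. The grouping of glands for which pairs with Arntl and Dbp are not given above enters these values too.

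The repressors of the clock, which answer to Arntl and Clock through E-boxes, mostly lay on the side of Dbp. Of 10 measured, 0 passed in limma, 3 were higher at an unadjusted p under 0.05 and 0 lower (4.81% and 5.46% of all genes). Positive differences were found for 9 of the 10 (median 0.30), and for 9450 of all 19938 genes. Ciart, a repressor of the Arntl and Clock pair, had the largest difference, with 103, 136, 127 and 56.3 in flox/+ and 427, 371, 264 and 239 in flox/flox glands. Its log2 difference was 1.51 ± 0.24 (SE, limma adjusted p = 0.0829). The period gene Per2 read 225, 239, 227 and 272 against 448, 490, 292 and 410, a difference of 0.71 ± 0.14 (adjusted p = 0.123), and for it too flox/flox replicate 3 was the lowest of its genotype. Cry1, a cryptochrome, was at 0.39 ± 0.10 (adjusted p = 0.241). Per1 (0.38), Per3 (0.26) and Nr1d2 (0.14) did not reach an unadjusted p of 0.05. Nr1d1, which represses Arntl at ROR elements, was the exception in sign, with a difference of -0.25 ± 0.14 (adjusted p = 0.568).

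**Figure D4:**
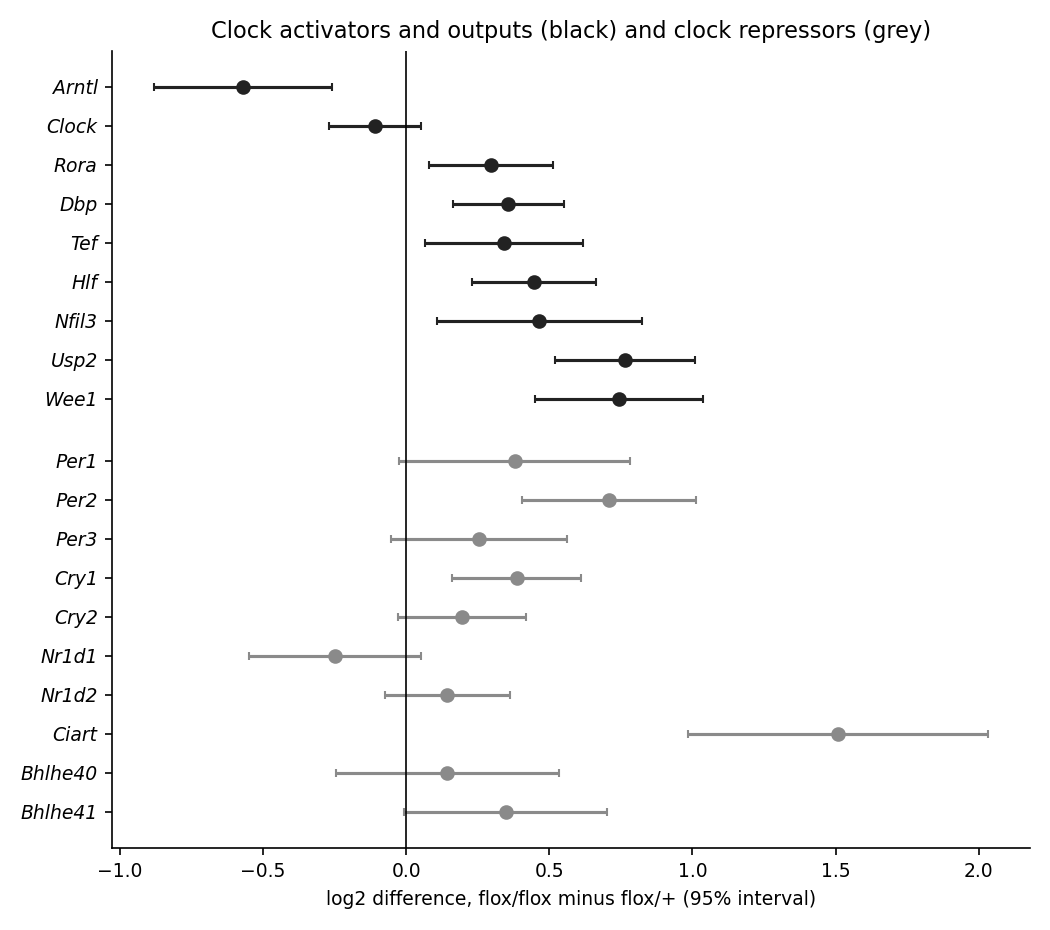
Log2 difference, flox/flox minus flox/+, with its 95% interval from limma, for the 9 clock activators and outputs (black) and the 10 clock repressors (grey), 4 glands per genotype. The intervals of Arntl, Rora, Dbp, Tef, Hlf, Nfil3, Usp2 and Wee1 exclude 0 before adjustment, that of Clock includes it, and Ciart has the largest difference of the repressors at 1.51.

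Relatives and modifiers of the clock, which include casein kinases and ubiquitin ligase subunits that act on the PER and CRY proteins, had differences near 0. Of the 15 measured 0 passed, 0 had an unadjusted p under 0.05 (10.3% of all genes), and their differences lay between -0.14 and 0.08. Among 14 other genes with daily rhythms in many tissues 0 passed and 7 were higher at an unadjusted p under 0.05 (4.81% of all genes), with a median of 0.23. Those with the smallest p were Tsc22d3, a glucocorticoid-induced leucine zipper (0.82 ± 0.18, limma adjusted p = 0.18, without overlap), the NAD synthesis enzyme Nampt (0.33 ± 0.11), Klf9 (0.41 ± 0.14) and the coactivator Ppargc1a (0.39 ± 0.15).

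Glucocorticoids can set the phase of clocks outside the brain. Of 12 measured target genes 0 passed, and 2 were higher and 1 lower at an unadjusted p under 0.05, where 4.81% of all genes were higher and 5.46% lower. Their median was 0.15. Fkbp5, a chaperone of the glucocorticoid receptor, read 274, 502, 374 and 286 in flox/+ and 767, 747, 888 and 532 in flox/flox glands (1.02 ± 0.19, limma adjusted p = 0.122). Zbtb16 was at 0.96 ± 0.20 and Angptl4 at -0.50 ± 0.12, each without overlap. Fkbp5 and Zbtb16 were highest in flox/flox replicate 3, where Dbp, Hlf, Usp2 and Wee1 were lowest of their genotype. Other targets (Sgk1, Errfi1, Nfkbia, Sult1a1 and Angptl4) were lowest of the flox/flox glands in that replicate, as was Tsc22d3. The part of glucocorticoid signals in these differences was not tested.

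The difference of Wee1 had the opposite sign to those of most genes it works with at the entry to mitosis. Of 9 measured G2/M genes 0 passed, 5 were lower at an unadjusted p under 0.05 (5.46% of all genes) and 0 higher, with a median of -0.22. The cyclin gene Ccnb2 read 475, 511, 551 and 615 in flox/+ and 359, 314, 414 and 344 in flox/flox glands (-0.57 ± 0.10, limma adjusted p = 0.106). Cyclin A2 (Ccna2, -0.60 ± 0.11) and the kinase Plk1 (-0.59 ± 0.12) were also without overlap, and Cdk1, the target of Wee1, was at -0.42 ± 0.11 (adjusted p = 0.249). Flox/flox replicate 3, the lowest of its genotype for Wee1, was the highest for Ccnb2, Ccna2, Plk1 and Cdk1. Among the controls, however, replicate 4 was the highest for Wee1 and also for Ccnb2, Plk1 and Cdk1.

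**Figure D5:**
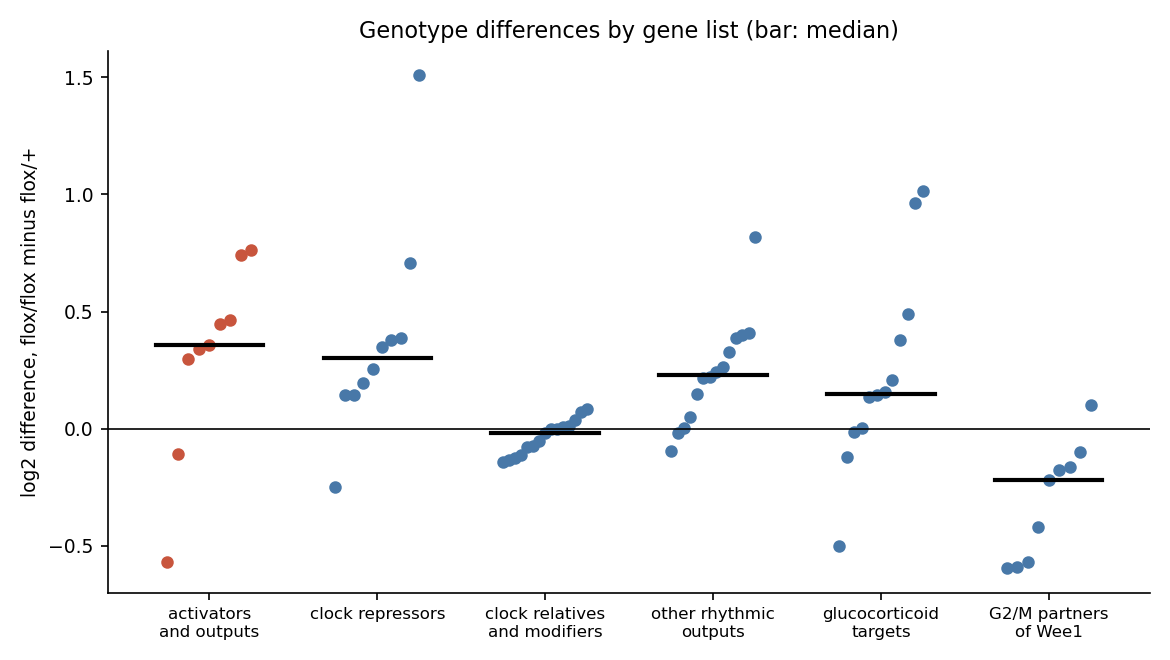
Log2 difference, flox/flox minus flox/+, of each measured gene (points, ordered by value within a list) with the median of the list as a bar, for the 9 clock activators and outputs (red) and 5 related lists (blue). The medians are 0.36 for the activators and outputs, 0.30 for repressors, -0.02 for relatives and modifiers, 0.23 for other rhythmic outputs, 0.15 for glucocorticoid targets and -0.22 for G2/M genes.

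Sox9 read 366 to 448 in flox/+ and 287 to 356 in flox/flox glands, and it is not known whether its probes lie in the deleted part. Deposited intensities had medians of 159 to 178 per array. Cell type markers read above 0 in every array, the lowest 21.6, although without detection calls such low values cannot be told from background. Their summed intensities overlapped between the genotypes for 9 of 10 lists. White adipocyte sums (9 of 10 markers measured) were 39290 to 46110 in flox/+ and 39800 to 46280 in flox/flox glands, and brown and beige adipocyte sums (6 of 7) 3926 to 7558 and 5736 to 10650. Luminal sums (10 of 11) were 11970 to 14180 and 11840 to 14130, and basal sums (8 of 8) 7951 to 9172 and 8037 to 10940. Fibroblast sums (8 of 8) were 41150 to 53030 and 36990 to 46110, endothelial sums (8 of 8) 5033 to 5901 and 4693 to 6234, and macrophage sums (7 of 7) 3398 to 5034 and 3594 to 5195. Lymphocyte sums (7 of 8) were 746 to 2651 and 785 to 909, the highest in flox/+ replicate 2, and muscle sums (9 of 9) 1703 to 1962 and 1555 to 1736. The keratinocyte sums (5 of 7) did not overlap, at 1041 to 1134 in flox/+ and 914 to 1011 in flox/flox glands, opposite in sign to Dbp, Usp2 and Wee1. By single genes most of the brown and beige adipocyte list lay on the side of Dbp. All 6 measured markers had differences above 0, with a median of 0.48, but Prdm16 was level at 6e-04. At an unadjusted p under 0.05, 3 were higher (4.81% of all genes), while Ucp1 (0.58), Cidea (0.30) and Prdm16 did not reach it, and 0 passed after adjustment. The fatty acid elongase gene Elovl3 of this list was at 1.94 ± 0.47 (SE, limma adjusted p = 0.212) without overlap. The sum of this list was highest in flox/flox replicate 1, and among flox/flox glands lowest in replicate 2. Dbp, Usp2 and Wee1 were lowest there in replicate 3. Taken singly, Elovl3, Cidea and Cox8b were also lowest of the flox/flox glands in replicate 3, Ucp1 and Dio2 in replicate 2, and Prdm16 in replicate 1. Among the controls the sum was highest in replicate 4 (7558), where Dbp and Wee1 were also highest and Usp2 was not. At the same p 2 of 8 fibroblast markers were lower, and 1 each of the endothelial (8 measured), muscle (9) and keratinocyte (5) lists, where 5.46% of all genes were lower. In the other lists 0 were lower. Without flox/+ replicate 2 the median of the 9 clock genes was 0.34. The part of cell composition, brown and beige fat included, in the differences was not tested.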

How the data were processed

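RNA of 8 mammary glands was hybridised to 1 Affymetrix Gene 1.0 ST array each. The deposited intensities are linear, and the submitters' processing notes name PLIER and Affymetrix Expression Console 1.0 for them. The sources used here do not state the background correction or normalization. Of 35557 probe sets 21789 had 1 gene symbol in the platform annotation, 1621 had several and 12147 were unnamed. The brightest probe set stood for a gene, which gave 19938 genes. Values were offset by 16, taken to log2 and quantile normalized, since array percentiles spread by up to 0.245 against a tolerance of 0.1. Printed intensities are the normalized ones with the offset removed.

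The comparison of genotypes used lmFit and eBayes of limma 3.58.1 (R 4.3.3), with p-values adjusted by Benjamini-Hochberg across the 19938 genes and called under 0.05. The script was tested on simulated data. Each log2 difference is flox/flox minus flox/+. Correlations used exact permutation of all pairings. No low-value filter was applied, and precision is limited by the number of arrays. Each gland is labelled as a sample of its own, and the labels do not say which mice shared a litter or a day.

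The clock genes and all lists were chosen with earlier results of these data known. Named are all the clock genes of the rule, Sox9, up to 4 genes per pathway list with the smallest unadjusted p under 0.05, the main Per, Rev-erb and Ciart repressors, and the 5 genes most like Arntl and Dbp. Also named are the measured markers of the brown and beige adipocyte list, most of which had genotype differences of the same sign as Dbp. The glucocorticoid targets lowest in flox/flox replicate 3 are named too. Promoter windows came from RefSeq, build GRCm38.p6.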

Additional observations from a re-analysis of the deposited data

Results flagged for a closer look

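In 56 groups of 4 glands (28 named genes in each genotype), the gap between an extreme gland and its nearest neighbour was compared with the range of the group, and chance exceeds Dixon's 95% critical value in about 1 in 20 such groups. The groups share the same glands, and some genes were named for a small p, so they are not independent draws against that rate. The critical value was exceeded in 5, each time by flox/flox replicate 3. The gland read 184 for Arntl (gap 0.839 of the range), above the other flox/flox glands, and 469 for Hlf (0.876), below them. It also read 380 for the period gene Per3 (0.978), below the other 3. For Ccna2 it read 224 (0.854) and for Plk1 190 (0.858), above them. For Per3 the value was below every control, whereas for Hlf it was just above the highest control.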

How the results depend on the processing

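The sign of all 9 clock genes and of Sox9 was the same in each of 19 alternatives, and the median of the 9 genes stayed between 0.33 and 0.40 with 1 array left out at a time. The count past the threshold was 0 in the main setting, where 8 of all 19938 genes passed. It was 1, Usp2, with median centring (18 of all genes), with an offset of 64 (19 of all genes), with trend and robust options (adjusted p = 0.0323, 17 of all genes) and with the replicate number as a block (adjusted p = 0.0365 under that replicate block, 8 of all genes). With 1 array left out it ran from 0 to 3, the 3 being Arntl, Usp2 and Wee1 without flox/flox replicate 3, where 21 of all genes passed. With an unmoderated 2-sample statistic 0 passed and 6 had an unadjusted p under 0.05. That count ran from 7 to 9 with 1 array left out. The count without overlap ran from 4 to 7, the cause of which is in part that fewer arrays overlap less often. Deviations of same-numbered glands had correlations of -0.204, 0.063, 0.209 and -0.095, and 2 flox/+ glands matched best with their own number. The labels do not say whether the numbers pair the samples, and so few correlations cannot settle it. The table has no detection calls, so the lowest values cannot be told from background.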
